A study of Mus musculus with 19 samples.

Results

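The genes described here encode structural proteins of the striated muscle sarcomere and its Z-disc, together with proteins that build, stretch-sense or turn over these structures. They were chosen by gene name, as a list of 42 muscle genes, with earlier results of these data known. All 42 were on the array, out of 27425 genes with a probe (83 of 41174 probes). The samples were C2C12 cells, an immortalised mouse myoblast line that can form myotubes, and soleus, a mouse postural muscle rich in slow fibres. The Control cells (n = 6) had received the empty plasmids, and the HDAC4 and 5 cells (n = 6) carried the human wild-type HDAC4 sequence in pIRES neo3 and the human wild-type HDAC5 sequence in pIRES hyg3. Both sets were made stable by rounds of selection in hygromycin B and geneticin (500 µg/ml) and were harvested 48 h after seeding at about 80% confluency, with no differentiation step stated for these samples. The methods state that cells stably overexpressing HDAC4 and 5 were studied as myoblasts, because HDAC4 and 5 kept them from differentiating into myotubes. The methods describe cell replicates as separate dishes or wells but give 3 biological replicates per group, whereas the labels list 6 samples per C2C12 group, each counted here as 1 replicate. Whether some of the 6 share a dish, and whether the lines are clones, is not given in the sources used here, so that p-values measure only the spread between these samples and are too small if some share a dish. The soleus samples came from male mice of 12 weeks, fasted for 5 h, that were db/db (db +/+), with no functional leptin receptor and therefore obese (n = 4), or heterozygous littermates (db -/+), here called Control (n = 3). Each sample was hybridised to 1 array from 100 ng of RNA.

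The sarcomere is the contractile unit of striated muscle. Thick filaments of myosin are held at the M-band, thin filaments of actin are held at the Z-disc, and the giant proteins titin and nebulin set the spacing and length of the filaments. Myoblasts switch most of these genes on when they leave the cell cycle and fuse, under the myogenic regulatory factors and MEF2 factors, and class IIa histone deacetylases such as HDAC4 and HDAC5 are known to bind MEF2 factors and repress their targets. Several proteins have a fast-fibre and a slow-fibre form, and adult mouse soleus holds both kinds of fibre.

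All levels are log2 of the background-subtracted spot intensity minus the 75th percentile of the same array, so that 0 is the 75th percentile itself. Levels are compared between samples for the same probe, never between probes. A probe counted as measured on an array where the scanner software called it well above background. The 75th percentile of the raw intensity ran from 494 to 1691 on the C2C12 arrays and from 153 to 686 on the soleus arrays. Control C2C12 replicate 3 was the brightest, and its highest level of any spot, 5.55, was the lowest of all arrays. The mouse Hdac5 probe was higher in the HDAC4 and 5 cells (log2 difference 1.42, limma adjusted p = 0.00039) and the mouse Hdac4 probe was not called (-0.05, limma adjusted p = 0.346). Both probes were designed on mouse transcripts and the transgenes were human, so neither probe is a direct check of the transgenes. The muscle-lineage markers Des and Cdh15 were measured on all 12 C2C12 arrays, while Myf5 and Pax7 were measured on none, and the slow-fibre markers Myh7 and Tnnt1 were measured on all 3 Control soleus arrays.

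The first comparison asked which sarcomere and Z-disc transcripts differed between HDAC4 and 5 cells and Control cells. Of the 42 genes, 38 were measured on every array of at least 1 group and were tested. All 38 were measured on every Control array but only 16 on every HDAC4 and 5 array. The others therefore passed this filter through Control alone, the group where they were high. In the HDAC4 and 5 cells, 34 of these 38 fell at an adjusted p below 0.05 in limma (Benjamini-Hochberg over 13991 genes), against 32.7% of all genes tested, 2 rose, against 36.5% of all genes, and 2 were not called. Groups did not overlap, with every HDAC4 and 5 array below every Control array, for 33 of the 38, against 26.3% of all genes. The median log2 difference of the 38 genes was -6.38, against 0.05 for all genes, and it was -5.06 with the genes whose main probe no HDAC4 and 5 array measured set at their bound. Where every array of both groups had to measure a gene, 16 members were testable, of which 12 fell and 2 rose. Their median was -1.71, against 0.09 for all genes under that filter. In RNA from a whole culture, fewer cells of a type and less RNA per cell cannot be told apart.

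**Figure D1:**
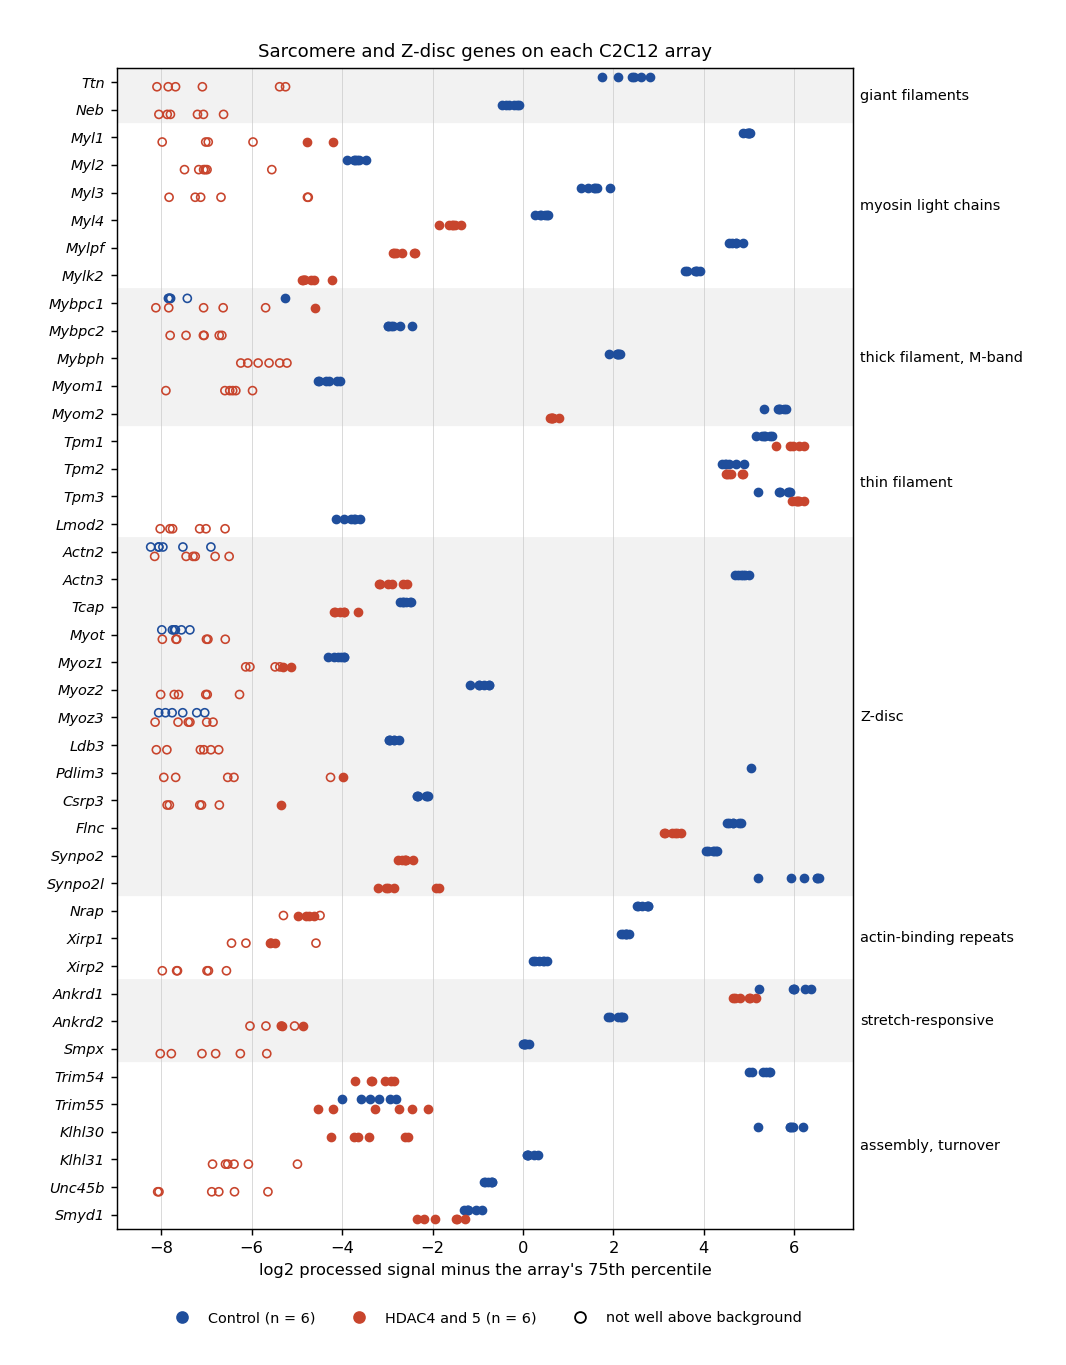
Level of each of the 42 genes on each C2C12 array, as log2 processed signal minus the array's 75th percentile, with genes grouped by role. Control arrays are blue and HDAC4 and 5 arrays are red (n = 6 each), and an open circle marks an array on which the probe was not well above background. For 33 of the 38 tested genes all red points lie to the left of all blue points, and Tpm1, Tpm2, Tpm3 and Trim55 are the tested genes that do not sit lower.

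Of the 34 genes that fell, 12 were still measured by their main probe, the brightest, on every HDAC4 and 5 array, 8 on 1 to 5 of the arrays and 14 on none. For the 14, the main probe gives only a lower limit of its fall, and these limits ran from 2.11-fold for Myom1 to 214-fold for Ttn. The fitted differences of the 8 also rest in part on spots not above background, so their sizes are uncertain. Of the 14, 5 (Ttn, Myl3, Mybph, Ldb3 and Xirp2) were measured on HDAC4 and 5 arrays by another probe, and 9 by no probe. All 34 also had a lower HDAC4 and 5 mean within each of the 3 slides that gave a value, and each slide held both groups. Among the main probes of the 42 genes, 38 were measured on every Control array and 16 on every HDAC4 and 5 array. Under normexp background correction with an offset of 50, 26 genes fell, Myom1 and Myoz1 had log2 differences of 0.05 and 0.13, and Myl2, Mybpc2, Lmod2, Tcap, Ldb3 and Smyd1 stayed lower but were not called.

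The main probes of titin and nebulin, the giant filament proteins, were above background on no HDAC4 and 5 array. Ttn, the spring that links Z-disc to M-band, had levels of 1.76, 2.43 and 2.81 (lowest, median, highest) on the 6 Control arrays and of -8.10, -7.39 and -5.25 on the 6 HDAC4 and 5 arrays. No HDAC4 and 5 array was above background on this probe and the groups lay far apart, so its signal was at least 214-fold lower (limma adjusted p = 1.67e-09). The gene had 9 probes, of which 8 were tested and all 8 fell. Probe A_51_P219312 was still above background on 3 HDAC4 and 5 arrays, with a log2 difference of -6.67. Neb, which runs along the thin filament, had levels of -0.46, -0.26 and -0.09 in Control cells and was above background on no HDAC4 and 5 array with any of its probes, at least 34.8-fold lower on the main probe (limma adjusted p = 5.28e-12). Its Control arrays lay close together, and all 3 of its 6 probes that could be tested fell.

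All 6 genes of the myosin light chains and their kinase fell. The light chains wrap the neck of the myosin head, and the regulatory ones are phosphorylated by the kinase. Myl1, the fast alkali light chain, had levels of 4.87, 4.99 and 5.03 in Control cells and of -7.98, -6.47 and -4.20 in HDAC4 and 5 cells. Its Control arrays lay within a narrow range, and only 2 of the 6 HDAC4 and 5 arrays measured it. The fitted log2 difference of -11.12 ± 0.54 (SE, limma adjusted p = 6.55e-10) therefore rests mostly on background-level spots.

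Mylpf, the fast regulatory light chain, was measured on every array of both groups, with levels of 4.57, 4.71 and 4.86 in Control cells (n = 5, 1 outlier spot left out) and of -2.88, -2.74 and -2.38 in HDAC4 and 5 cells. Both groups were tight and far apart, and the fall was 164-fold (log2 difference -7.36 ± 0.10 SE, limma adjusted p = 3.65e-14). Mylk2, the skeletal myosin light chain kinase, ran from 3.58 to 3.91 in Control cells and from -4.88 to -4.23 in HDAC4 and 5 cells, where 5 of 6 arrays measured it (log2 difference -8.45). Myl4, the embryonic and atrial alkali light chain, fell least of the group. Its levels were 0.27, 0.44 and 0.55 in Control cells and -1.87, -1.56 and -1.38 in HDAC4 and 5 cells, a 4.06-fold fall (limma adjusted p = 7.64e-11) with no overlap.

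The main probes of the slow and ventricular light chains were above background in Control cells alone. Myl3 had levels from 1.29 to 1.92 in Control cells and was at least 120-fold lower on this probe. The probes of Myl3 disagreed, because its dimmer second probe was measured on all 12 arrays and had a log2 difference of 0.73 that was not called (limma adjusted p = 0.0855). Myl2 had levels from -3.88 to -3.47 and was at least 3.25-fold lower, a call that was lost under normexp correction (log2 difference -0.33). Both Myl1 probes fell, with fitted log2 differences of -11.12 and -9.41. The second was above background on no HDAC4 and 5 array and was at least 179-fold lower.

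Of the thick filament and M-band proteins, 4 of 5 were tested and all 4 fell. Myom2, the M-protein that crosslinks thick filaments at the M-band of fast fibres, had levels of 5.32, 5.68 and 5.81 in Control cells and of 0.59, 0.64 and 0.80 in HDAC4 and 5 cells. Every array measured it and the groups were well separated, a 31.8-fold fall (log2 difference -4.99 ± 0.08 SE, limma adjusted p = 1.28e-14). The lowest Control spot of Myom2 was saturated. Mybph, a myosin-binding protein of fast muscle, had levels from 1.91 to 2.15 in Control cells and was at least 175-fold lower on its main probe, while its second probe was measured on 2 HDAC4 and 5 arrays (log2 difference -8.30). Mybpc2, the fast myosin-binding protein C, and Myom1, the myomesin of all striated muscle, were already dim in Control cells, with levels from -2.99 to -2.45 and from -4.53 to -4.04, and were at least 5.92-fold and at least 2.11-fold lower, calls that neither kept under normexp correction. Mybpc1, the slow myosin-binding protein C, was measured on 1 array of each group and was not tested.

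The thin filament proteins gave both falls and rises. Of the 4 genes tested, Lmod2, a leiomodin that nucleates actin filaments, fell (at least 2.95-fold lower, Control levels from -4.13 to -3.60, not called under normexp correction), Tpm1 and Tpm3 rose and Tpm2 was not called. Tropomyosins lie along the actin filament and gate myosin binding, and their genes also produce non-muscle isoforms by alternative promoters and splicing. Tpm1 had levels of 5.14, 5.35 and 5.50 in Control cells and of 5.59, 5.98 and 6.22 in HDAC4 and 5 cells (n = 5, 1 outlier spot left out). All 5 of these HDAC4 and 5 arrays were above all Control arrays, and the rise was 1.53-fold (log2 difference 0.61 ± 0.11 SE, limma adjusted p = 0.000286). In the deposited matrix the rise was 0.39 on the log2 scale and was not called (limma adjusted p = 0.0621).

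Tpm3 had levels of 5.21, 5.77 and 5.90 in Control cells and of 5.95, 6.07 and 6.22 in HDAC4 and 5 cells. The groups did not overlap but were close, with a log2 difference of 0.37 ± 0.11 (SE, limma adjusted p = 0.0072) that passed no threshold after quantile normalization (limma adjusted p = 0.36). The lowest Control spot of Tpm3 was saturated, which may enlarge this rise. Tpm2 ran from 4.39 to 4.88 in Control cells and from 4.48 to 4.87 in HDAC4 and 5 cells, and its groups covered the same range (log2 difference 0.06 ± 0.10 SE, limma adjusted p = 0.594).

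The probes of Tpm1 did not move together, and their sequences are shown because the tropomyosin result turns on what each probe reads. The main Tpm1 probe, A_52_P532910, lies at chr9:66880625-66881695 on the minus strand of mm9 and the main Tpm2 probe, A_52_P418477, at chr4:43532150-43532300 on the minus strand. Each has 60 bases aligned over a longer stretch of genome, so each crosses an exon junction. In the best ungapped overlap of the probes, 27 of 33 bases were identical (81.8%), and capitals mark the identical bases.
Tpm1 A_52_P532910: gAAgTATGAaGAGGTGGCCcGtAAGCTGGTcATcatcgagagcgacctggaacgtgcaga
Tpm2 A_52_P418477: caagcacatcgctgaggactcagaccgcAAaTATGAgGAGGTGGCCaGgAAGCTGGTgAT
Tpm1 A_51_P325173: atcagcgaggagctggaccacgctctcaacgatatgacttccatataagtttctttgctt
The last of these lies at chr9:66875959-66877514 on the minus strand of mm9, also across a junction, and has no marked bases. How far each probe binds transcripts of the other gene was not tested.

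The 4 Tpm1 probes gave 3 rises and 1 fall in the HDAC4 and 5 cells. Probe A_52_P44949 had levels of 5.24, 5.46 and 5.58 in Control cells and of 6.20, 6.32 and 6.65 in HDAC4 and 5 cells, a log2 difference of 0.93 (limma adjusted p = 7.72e-07) with no overlap. The spots of 3 HDAC4 and 5 arrays and 1 Control array were saturated on this probe, so that the size of its rise is uncertain. Probe A_51_P325173 went the other way, with levels of 4.50, 4.63 and 4.76 in Control cells and of 3.89, 3.98 and 4.32 in HDAC4 and 5 cells, a log2 difference of -0.61 ± 0.07 (SE, limma adjusted p = 8.2e-06). Probe A_51_P378371 was above background on no Control array and on all 6 HDAC4 and 5 arrays, at least 2.58-fold higher. The probes that rose and the probe that fell also differed in muscle. On the 3 Control soleus arrays A_52_P44949 had levels of 2.09, 1.89 and 2.58, below every C2C12 array, whereas A_51_P325173 had levels of 8.27, 8.56 and 6.68, above every C2C12 array. The second Tpm3 probe, A_51_P462153, had a log2 difference of 0.02 in C2C12 cells (limma adjusted p = 0.911) and was higher on the Control soleus arrays, at 5.69, 5.59 and 6.71, than on the Control C2C12 arrays, where its mean was -1.18.

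**Figure D2:**
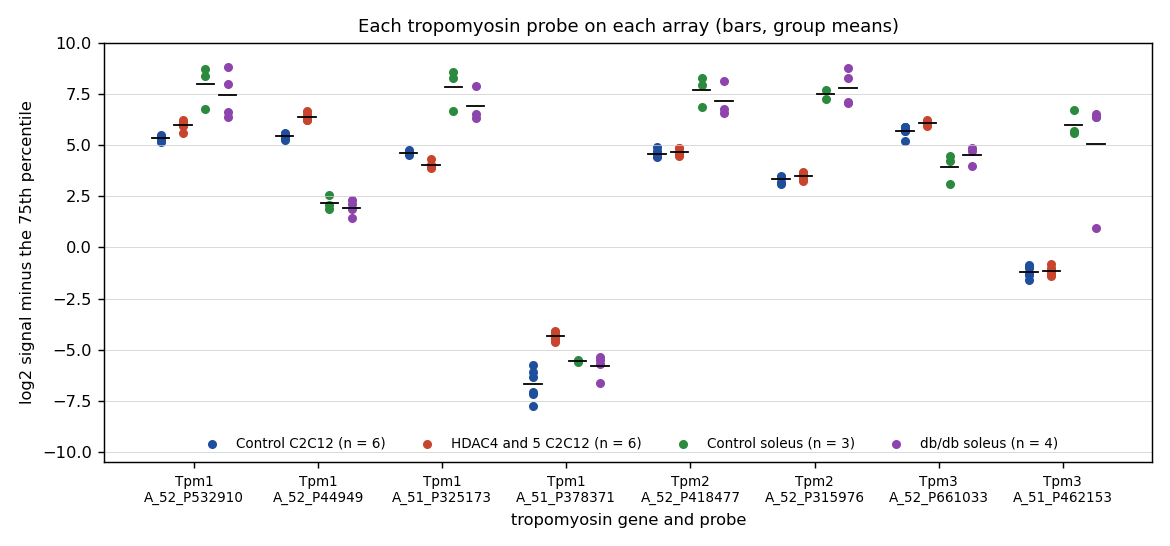
Level of every tropomyosin probe on every array, as log2 processed signal minus the array's 75th percentile, with black bars for group means (Control C2C12 n = 6, HDAC4 and 5 n = 6, Control soleus n = 3, db/db n = 4, outlier spots left out). Among the Tpm1 probes A_52_P44949 is higher in C2C12 cells than in soleus and rises with HDAC4 and 5, while A_51_P325173 is higher in soleus and falls.

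All 10 Z-disc genes that could be tested fell. Actn3, the fast-fibre α-actinin that crosslinks actin at the Z-disc, had levels of 4.69, 4.85 and 5.00 in Control cells and of -3.18, -2.94 and -2.57 in HDAC4 and 5 cells. All 12 arrays measured it and the groups were tight, a 215-fold fall (log2 difference -7.75 ± 0.11 SE, limma adjusted p = 5.77e-15). Actn2, another α-actinin of the Z-disc, was above background on no C2C12 array and was not tested. The same held for Myot, the actinin-binding protein myotilin, and Myoz3, a myozenin.

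Synpo2, an actin-bundling protein that binds α-actinin and filamin, had the smallest adjusted p of the 42 genes. Its levels were 4.04, 4.21 and 4.29 in Control cells and -2.77, -2.61 and -2.44 in HDAC4 and 5 cells, a 111-fold fall measured on all arrays (log2 difference -6.80 ± 0.06 SE, limma adjusted p = 2.87e-16). Its relative Synpo2l had levels of 5.19, 6.35 and 6.55 in Control cells, of which 4 spots were saturated, and of -3.22, -2.91 and -1.86 in HDAC4 and 5 cells. With the Control arrays at the scanner's limit, its log2 difference of -8.79 may understate the fall.

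Pdlim3, a PDZ and LIM domain protein that binds α-actinin, could be fitted on its brightest probe with only 1 Control array, because the spots of the other 5 were marked as outliers. Its second probe, A_51_P157677, had levels of 4.18, 4.22 and 4.28 on 5 Control arrays and of -8.12, -7.56 and -3.22 in HDAC4 and 5 cells. All HDAC4 and 5 arrays lay far below the Control arrays, but only 1 of the 6 was above background, so the fitted log2 difference of -10.83 (limma adjusted p = 1.27e-07) rests mostly on background-level spots. Myoz2, the slow-fibre myozenin that binds calcineurin, was above background on no HDAC4 and 5 array and at least 22.2-fold lower from Control levels of -1.17 to -0.76. Ldb3, a PDZ protein that stabilises the Z-disc, was at least 5.67-fold lower on its main probe from -2.96 to -2.74, a call lost under normexp correction. Another Ldb3 probe, A_52_P389874, was measured on all 6 HDAC4 and 5 arrays and also fell (log2 difference -3.61, limma adjusted p = 2.98e-11). Csrp3, the muscle LIM protein, fell from a range of -2.34 to -2.11 and was measured on 1 HDAC4 and 5 array (log2 difference -4.77).

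Smaller falls were seen for Flnc, Tcap and Myoz1. Flnc, the muscle filamin that links actin to the membrane, was measured on every array, with levels of 4.52, 4.63 and 4.81 in Control cells and of 3.12, 3.33 and 3.48 in HDAC4 and 5 cells. The groups did not overlap and all 3 tested probes fell, by 1.06 to 1.35 on the log2 scale. Tcap, which caps titin at the Z-disc, had levels of -2.72, -2.62 and -2.47 in Control cells and of -4.19, -4.001 and -3.65 in HDAC4 and 5 cells (log2 difference -1.39). Myoz1, the fast-fibre myozenin, was measured on 2 HDAC4 and 5 arrays (log2 difference -1.49). Neither Tcap nor Myoz1 was called under normexp correction.

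All 3 actin-binding repeat genes fell. Nrap, a nebulin-related anchoring protein of myofibril assembly and junctions, ran from 2.52 to 2.77 in Control cells and from -5.30 to -4.49 in HDAC4 and 5 cells, where 4 arrays measured it (log2 difference -7.48). Xirp1 and Xirp2 carry Xin repeats that stabilise actin. Xirp1 ran from 2.17 to 2.34 in Control cells and was measured on 2 HDAC4 and 5 arrays (log2 difference -7.89), and Xirp2 ran from 0.21 to 0.52 and was at least 54.3-fold lower on its main probe, while another probe was measured on 1 HDAC4 and 5 array (log2 difference -4.36).

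All 3 stretch-responsive genes fell. Ankrd1 and Ankrd2 are ankyrin repeat proteins that bind titin and can enter the nucleus. Ankrd1 had levels of 5.23, 5.99 and 6.37 in Control cells, 3 of them saturated, and of 4.65, 4.90 and 5.14 in HDAC4 and 5 cells. The groups did not overlap, and the fall was 2.12-fold (log2 difference -1.08 ± 0.17 SE, limma adjusted p = 6.89e-05), which the saturated Control spots may understate. Ankrd2 ran from 1.89 to 2.20 in Control cells and was measured on 2 HDAC4 and 5 arrays (log2 difference -7.45), and Smpx, a small muscle protein, was at least 43.2-fold lower from Control levels of 0.00 to 0.12.

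Of the 6 assembly, turnover and chaperone genes, 5 fell. Trim54, a RING-finger protein of the MuRF family that binds microtubules and the sarcomere, had levels of 4.99, 5.33 and 5.45 in Control cells and of -3.71, -3.19 and -2.85 in HDAC4 and 5 cells. All arrays measured it and the groups lay apart, a 355-fold fall (log2 difference -8.47). Trim55, another MuRF protein, had levels of -4.002, -3.29 and -2.81 in Control cells and of -4.54, -3.01 and -2.09 in HDAC4 and 5 cells. Its groups covered the same range (log2 difference 0.10 ± 0.40 SE, limma adjusted p = 0.834), and its difference was 0.61, 0.69 and -0.996 within the 3 slides.

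Klhl30, a Kelch family protein, had levels of 5.19, 5.93 and 6.19 in Control cells, 2 of them saturated, and of -4.25, -3.52 and -2.53 in HDAC4 and 5 cells (log2 difference -9.22, which saturation may likewise understate). Klhl31, a Kelch protein needed for sarcomere integrity, ran from 0.09 to 0.34 in Control cells and was at least 46.8-fold lower. Unc45b, a chaperone that folds myosin, ran from -0.86 to -0.68 and was at least 24.7-fold lower. Smyd1, a methyltransferase that acts with Unc45b in myosin assembly, was the 1 gene that fell although its groups overlapped, with levels of -1.31, -1.22 and -0.90 in Control cells and of -2.35, -1.71 and -1.29 in HDAC4 and 5 cells (log2 difference -0.63 ± 0.17 SE, limma adjusted p = 0.00594, not called under normexp correction).

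The members were also grouped by fibre type. All 6 fast-fibre members (Myl1, Mylpf, Mylk2, Actn3, Mybpc2 and Myoz1) fell. Of the 6 slow-fibre members, 5 (Myl2, Myl3, Myoz2, Csrp3 and Ankrd2) fell, while Tpm3 rose on its main probe. That probe was lower in Control soleus than in Control C2C12 cells. The second Tpm3 probe, which was higher in Control soleus, was not called (log2 difference 0.02, limma adjusted p = 0.911). A rise of a slow-fibre Tpm3 transcript is therefore not shown.

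**Figure D3:**
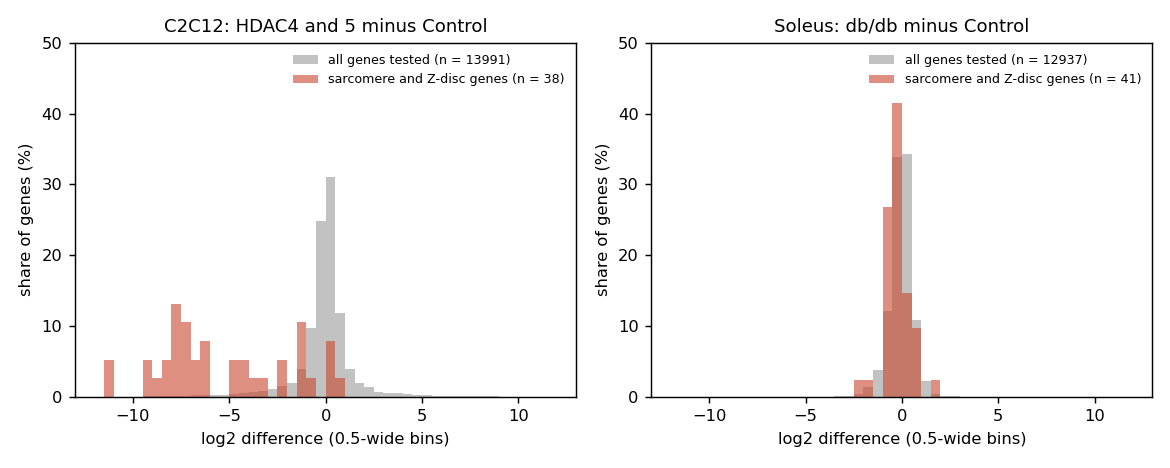
Share of genes (%) in 0.5-wide bins of the log2 difference, for all genes tested (grey) and for the sarcomere and Z-disc genes tested (red), in C2C12 cells (left, 38 of 13991 genes) and in soleus (right, 41 of 12937 genes). In C2C12 cells the red bars have a median of -6.38 against 0.05 for all genes, and in soleus a median of -0.21 against -0.02. Values of the 14 genes whose main probe no HDAC4 and 5 array measured are fitted values and not limits.

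Other genes of the muscle programme were taken from lists, with 1 probe per gene. Over all genes tested in C2C12 cells, 32.7% fell and 36.5% rose. Of 11 myogenic regulators tested in C2C12 cells, 9 fell and none rose, with Myog, the factor of terminal differentiation, at a log2 difference of -9.67 (measured on 4 of 6 HDAC4 and 5 arrays), Myod1, the factor of myoblast commitment, at least 263-fold lower and Mef2c, a MEF2 factor, at least 8.93-fold lower. On the Control arrays Myog had levels from 4.25 to 4.51. Of 31 other sarcomere genes tested, 26 fell and 4 rose. The slow troponin I gene Tnni1 was at least 276-fold lower, the fast troponin I gene Tnni2 had a log2 difference of -8.84 and the embryonic myosin gene Myh3 one of -8.73, whereas the slow myosin gene Myh7 (1.44), the tropomodulin gene Tmod4 (1.13) and the palladin gene Palld (1.09) rose. Of 20 non-muscle paralogues tested, 9 fell and 6 rose, with a median log2 difference of 0.25 against 0.05 for all genes. These counts are not read as a result about the paralogues. Myl9, Pdlim7 and Pdlim1 fell most, by 5.05, 1.82 and 1.31 on the log2 scale, and Mylk, Tmod3 and Smyd3 rose most, by 2.98, 1.39 and 1.03.

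Marker lists of cell states did not all move in the same way, and 32.7% of all genes tested fell and 36.5% rose. Of 8 myoblast markers tested 7 fell, and the log2 summed level of the list was 7.18 to 8.26 on Control arrays and 3.81 to 4.06 on HDAC4 and 5 arrays, with Myf5 and Pax7 above background on no array of either group and Myod1 on no HDAC4 and 5 array. Of 5 fibroblast markers tested 2 fell and 3 rose, with overlapping summed levels of 6.25 to 7.14 and 6.43 to 6.63. All 3 smooth muscle markers tested fell, with summed levels of 4.65 to 5.47 and 3.98 to 4.43, and of 2 epithelial markers tested 1 fell and 1 rose, with summed levels of 1.78 to 2.07 and -2.01 to -1.63, both lists without overlap. Their part in the result was not tested.

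Promoter sequences are shown because so many members were lower together in the HDAC4 and 5 cells. RefSeq windows on GRCm38.p6, from 250 bases before to 50 after the gene start, were held for 31 of the 42 genes and for 27025 promoters in all. The promoters of 5 members are printed up to the start, Myl1 (chr1:66945057-66945306, minus strand), Mylpf (chr7:127211358-127211607, plus strand), Trim54 (chr5:31116362-31116611, plus strand), Synpo2l (chr14:20668355-20668604, minus strand) and Tpm1 (chr9:67049214-67049463, minus strand). Tpm1 is included as a gene whose main probe rose, and which of its transcripts start at this window was not tested. Capitals mark matches, on either strand, to the E-box CANNTG or its form CAGCTG in every promoter, to CATTCC in Myl1, Trim54 and Tpm1, and to the MEF2 box in Synpo2l.
Myl1: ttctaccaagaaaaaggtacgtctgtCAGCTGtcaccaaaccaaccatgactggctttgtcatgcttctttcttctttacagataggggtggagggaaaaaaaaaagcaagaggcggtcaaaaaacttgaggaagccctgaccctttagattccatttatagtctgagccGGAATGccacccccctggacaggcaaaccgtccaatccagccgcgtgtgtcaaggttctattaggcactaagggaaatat
Mylpf: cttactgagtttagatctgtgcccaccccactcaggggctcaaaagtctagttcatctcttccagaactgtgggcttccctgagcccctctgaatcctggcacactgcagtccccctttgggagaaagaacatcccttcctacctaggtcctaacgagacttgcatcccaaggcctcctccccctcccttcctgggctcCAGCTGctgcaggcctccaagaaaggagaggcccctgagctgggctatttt
Trim54: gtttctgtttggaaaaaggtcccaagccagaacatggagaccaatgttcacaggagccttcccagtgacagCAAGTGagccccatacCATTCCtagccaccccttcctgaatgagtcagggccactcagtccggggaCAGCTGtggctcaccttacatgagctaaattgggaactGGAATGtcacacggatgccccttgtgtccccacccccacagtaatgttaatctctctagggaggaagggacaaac
Synpo2l: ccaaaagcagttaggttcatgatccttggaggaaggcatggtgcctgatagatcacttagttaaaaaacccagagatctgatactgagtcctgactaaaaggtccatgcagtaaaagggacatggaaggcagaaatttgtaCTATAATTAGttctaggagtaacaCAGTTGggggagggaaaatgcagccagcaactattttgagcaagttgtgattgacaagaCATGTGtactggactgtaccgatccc
Tpm1: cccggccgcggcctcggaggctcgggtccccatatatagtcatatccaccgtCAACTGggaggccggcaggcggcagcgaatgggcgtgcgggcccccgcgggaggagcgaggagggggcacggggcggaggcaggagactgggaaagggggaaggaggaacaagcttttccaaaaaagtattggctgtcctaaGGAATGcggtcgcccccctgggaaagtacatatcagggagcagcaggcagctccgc

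Within these windows the matches lay at different distances from the start. CAGCTG, the E-box form that MyoD and myogenin prefer, began at -224 in Myl1, -51 in Mylpf and -113 in Trim54. CATTCC, the core of the TEAD factor site, began at -80 in Myl1, at -163 and -75 in Trim54 and at -56 in Tpm1, and the MEF2 box began at -109 in Synpo2l. Over the 300-base windows, CANNTG was in 25 of 31 members (80.6%) against 72.1% of all promoters, and CAGCTG, each match of which is also a CANNTG match, was in 12 (38.7%) against 16.1%. CATTCC was in 10 (32.3%) against 14.6%, the MEF2 box in 5 (16.1%; Myoz2, Synpo2, Synpo2l, Ttn and Xirp2) against 3.26%, and the CArG box in 3 (9.68%; Ldb3, Myl3 and Myom1) against 1.57%. A match is a description of letters and not a site or a cause.

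The next comparison asked whether the same genes differed between db/db and Control soleus. None of the 41 genes tested passed an adjusted p of 0.05 in limma (smallest 0.619), against 0.00773% of all 12937 genes, which is 1 gene. With slide as a block, limma called 40 of all genes and none of the 41 members. In simulated data the soleus fit without a block recovered 40% of changes of 2 on the log2 scale. The lack of a call therefore does not show that a gene was unchanged. At an unadjusted p below 0.05 in limma there were 4 members (Actn3, Mybpc2, Myl4 and Ankrd1), against 6.25% of all genes, and 6 with slide as a block. Groups did not overlap for 3 members, 1 lower and 2 higher, against 10.3% of all genes in either direction. Means were lower in db/db muscle for 30 genes and higher for 11, with a median log2 difference of -0.21 against -0.02 for all genes.

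The median differed between saturated and unsaturated members. In soleus 29 of the 42 genes were at the scanner's limit on at least 1 array, against 7.17% of all genes, and Myl2, Myl3, Mylpf, Tcap and Synpo2l were at the limit on all 7. The highest level of any spot was 8.62 to 8.98 on the arrays of slide 4 (Control 1 and 2, db/db 1 and 2). There 35 of 168 member spots were saturated. On slide 5 (Control 3, db/db 3 and 4) the highest level was 7.23 to 7.57, and 78 of 126 member spots were saturated. Spots could saturate below the highest level of their array, as Actn2 did at 6.31 on db/db 3, whose highest was 7.23. The 29 tested members with any saturated spot had a median log2 difference of -0.29, with 24 lower, and the 12 without any had one of 0.19, with 6 lower. For the 5 genes saturated on every array no difference is given.

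**Figure D4:**
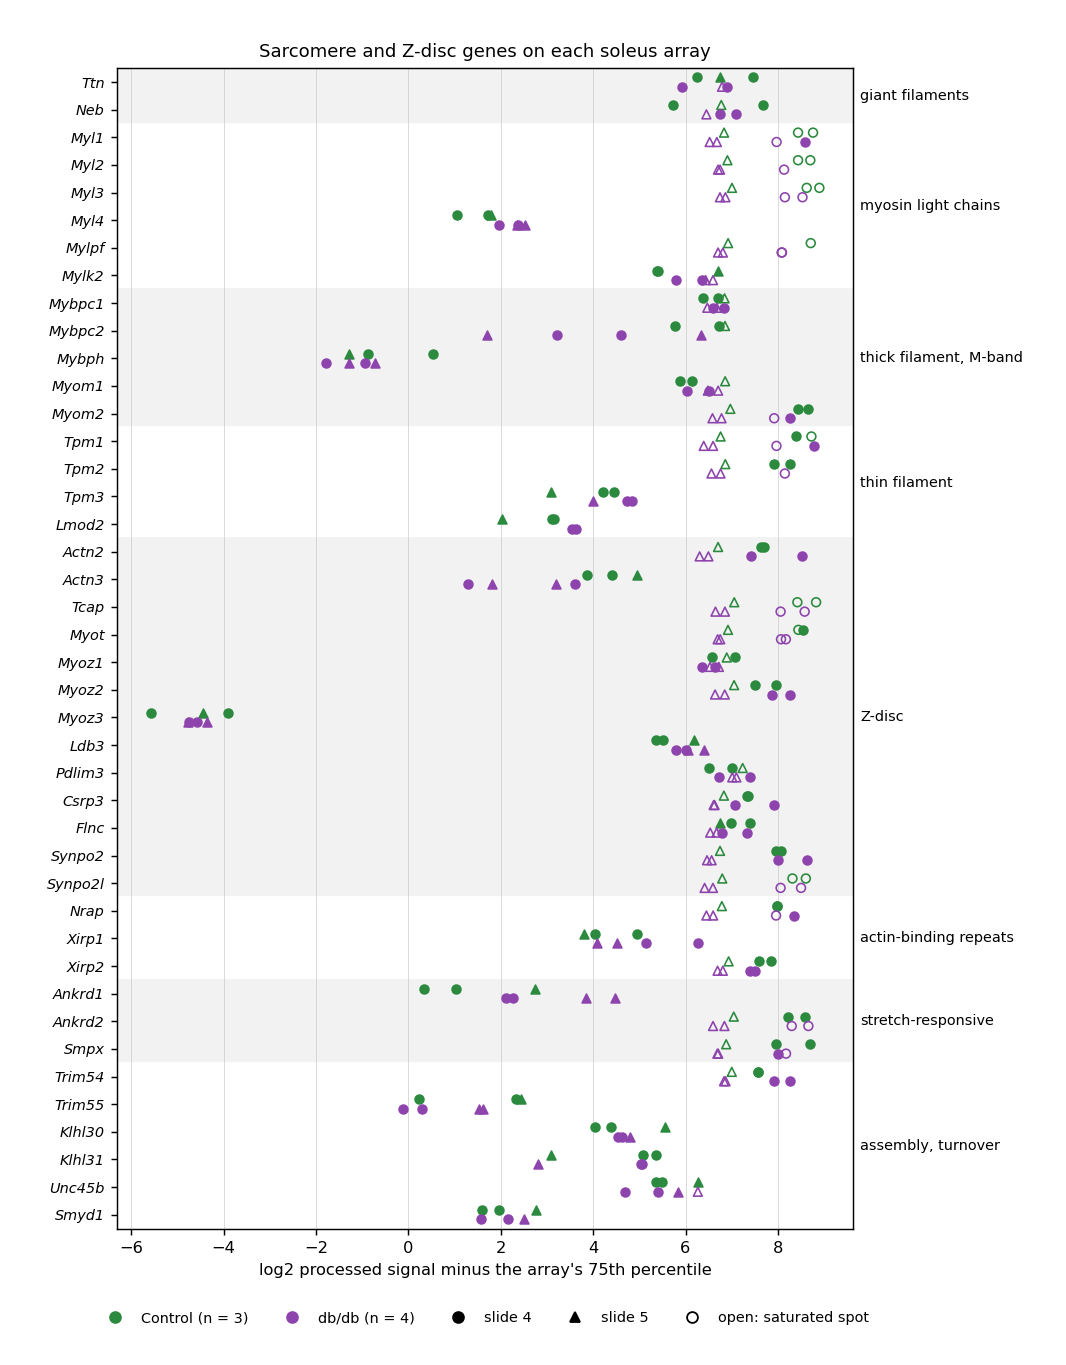
Level of each of the 42 genes on each soleus array, as log2 processed signal minus the array's 75th percentile, with Control in green (n = 3) and db/db in purple (n = 4), circles for slide 4, triangles for slide 5 and open symbols for saturated spots. Open triangles, the saturated spots of slide 5, sit below the open circles of slide 4, and Actn3, Mybpc2, Myl4 and Ankrd1 are the genes with the smallest unadjusted p.

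Actn3, the fast-fibre α-actinin, was the gene with the smallest p and the 1 member that was lower with no overlap. Its level was 3.87, 4.42 and 4.94 on Control arrays 1 to 3 and 3.61, 1.28, 3.19 and 1.81 on db/db arrays 1 to 4, none of them saturated. All 4 db/db arrays lay below all 3 Control arrays, with a log2 difference of -1.94 ± 0.61 (SE, limma adjusted p = 0.619), and the difference was -1.70 within slide 4 and -2.44 within slide 5. The probe, at chr19:4861727-4862212 on the minus strand of mm9, crosses an exon junction and is shown because Actn3 was low without overlap in both comparisons.
Actn3 A_52_P656699: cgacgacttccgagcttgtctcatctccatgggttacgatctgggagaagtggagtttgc

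Mybpc2, the fast myosin-binding protein C, had levels of 5.77, 6.72 and 6.85 on Control arrays, the last saturated, and of 4.60, 3.22, 6.33 and 1.69 on db/db arrays. It was low on 3 of 4 db/db arrays and within the Control range on the other, db/db 3 (log2 difference -2.49 ± 0.98 SE, limma adjusted p = 0.772), and the difference was -2.33 and -2.84 within slides 4 and 5. Among the other fast-fibre members, Mylk2 was 5.39, 5.40 and 6.69 on Control arrays and 6.35, 5.79, 6.43 and 6.59 on db/db arrays, with db/db 3 and 4 saturated, and its groups overlapped (log2 difference 0.46). Mylpf was at the scanner's limit on all 7 arrays, and the main probes of Myl1 on 6 and of Myoz1 on 3, so that differences on these probes could not be measured fully. The second Myl1 probe, saturated on 1 Control and 1 db/db array, had a log2 difference of -0.14. Myoz1 was unsaturated on slide 4, where its difference was -0.32. The second Myoz1 probe, saturated on 1 Control and 2 db/db arrays, had a log2 difference of 0.04.

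Myl4, the embryonic and atrial light chain, was higher with no overlap. Its level was 1.72, 1.04 and 1.78 on Control arrays and 2.38, 1.96, 2.35 and 2.53 on db/db arrays, none saturated. All db/db arrays lay above all Control arrays (log2 difference 0.79 ± 0.31 SE, limma adjusted p = 0.772), by 0.79 and 0.66 within the slides. Lmod2 was the other gene with no overlap, at 3.15, 3.12 and 2.04 on Control arrays and at 3.54 and 3.62 on db/db arrays 1 and 2, and the fit left out db/db 3 and 4 as outlier spots (log2 difference 0.81, limma adjusted p = 0.927).

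Ankrd1, the stretch-responsive ankyrin repeat protein, was 1.03, 0.33 and 2.73 on Control arrays and 2.12, 2.27, 3.84 and 4.47 on db/db arrays. Within each slide every db/db array lay above every Control array, although the groups overlapped across slides (log2 difference 1.81 ± 0.76 SE, limma adjusted p = 0.79), and the difference was 1.52 and 1.42 within slides 4 and 5. Xirp1, the Xin repeat protein, was 4.94, 4.04 and 3.80 on Control arrays and 6.27, 5.15, 4.52 and 4.08 on db/db arrays, with a log2 difference of 0.74 (limma adjusted p = 0.951). Its groups overlapped across slides, but within each slide every db/db array lay above every Control array, by 1.22 and 0.50 on average in slides 4 and 5. Trim55 was 2.33, 0.23 and 2.44 on Control arrays and 0.30, -0.11, 1.61 and 1.53 on db/db arrays, also overlapping (log2 difference -0.84). Ttn, the titin gene, was 7.47, 6.26 and 6.76 on Control arrays and 5.93, 6.90 and 6.79 on the 3 db/db arrays in the fit (db/db 4 was left out as an outlier spot), and its groups overlapped. Myoz3 was the 1 gene not tested, with levels from -5.58 to -3.90 in Control muscle and measured on 1 db/db array only.

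In soleus no list of other muscle genes held a gene past the adjusted p. Of 35 other sarcomere genes, 1 was lower and 3 were higher at an unadjusted p below 0.05 in limma, against 6.25% of all genes. These were the fast myosin gene Myh4 (log2 difference -2.66), and Myh3 (1.62), Tnnt2 (1.42) and Hspb7 (0.80). They fall outside the naming rule and were picked on seeing these values. Summed levels of marker lists overlapped between Control and db/db muscle for all 8 fast-fibre markers (9.91 to 11.47 and 9.43 to 10.72), all 5 slow-fibre markers (9.39 to 10.34 and 9.07 to 10.34), 4 smooth muscle markers (7.27 to 8.63 and 4.34 to 8.22) and 7 adipocyte markers (7.81 to 8.78 and 7.39 to 8.27). The brightest probes weigh most in these sums. Of the fast-fibre markers, Myh2 was saturated on every soleus array and Myh1 on 3 Control and 2 db/db arrays. The overlap therefore does not show an equal fibre content. Gene by gene, the median log2 difference was -0.78 for the fast-fibre and -0.09 for the slow-fibre markers, with none called. Their part in the differences of single genes was not tested.

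The last comparison set the level of each gene in Control soleus beside that in Control C2C12 cells. Of the 41 genes measured in at least 1 of the 2, 36 were above every C2C12 array on every soleus array, against 35.1% of all genes, and 3 were below, against 36% of all genes. The arrays of the 2 sources lay on different slides, so source and slide cannot be told apart, and no test was made. The genes that were higher in Control C2C12 cells than in Control soleus were Ankrd1 (log2 difference, soleus minus C2C12, of -4.60), Mybph (-2.62) and, on its main probe, Tpm3 (-1.78).

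Actn3 and Klhl30 overlapped between the sources, with differences of -0.43 and -1.19. Actn3 was 4.69 to 5.00 in Control C2C12 cells and 3.87 to 4.94 in Control soleus, so the lowest soleus array lay below the C2C12 range and the highest within it. Genes that no C2C12 array measured, such as Actn2 and Myot, had levels of 6.71 to 7.71 and of 6.92 to 8.55 in Control soleus. Saturation in soleus caps the differences, since 25 members were saturated on at least 1 Control soleus array and 5 on at least 1 Control C2C12 array.

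**Figure D5:**
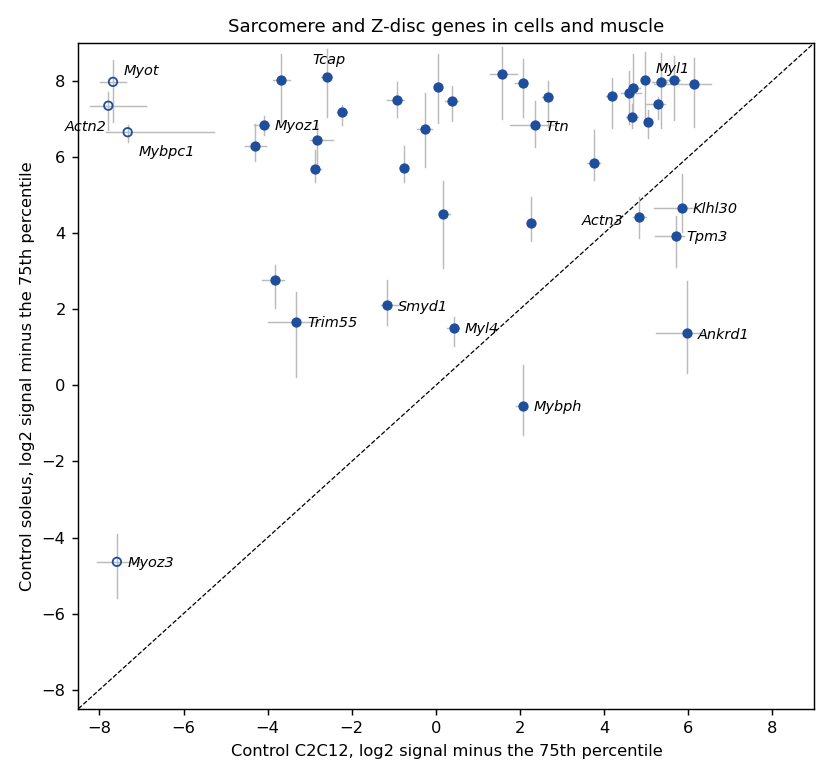
Mean level of each of the 42 genes in Control C2C12 cells (x axis, n = 6) and in Control soleus (y axis, n = 3), both as log2 processed signal minus the array's 75th percentile, with grey lines from the lowest to the highest array. Open circles are genes not above background on every Control C2C12 array, points above the dashed line of equality are higher in soleus, and Ankrd1, Tpm3, Klhl30, Mybph and Actn3 lie below it.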

How the data were processed

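Gene expression was measured on 19 1-colour Agilent arrays. The authors scanned each array with Agilent Feature Extraction 9.5.1.1 (per the submitters' processing notes and file headers) and deposited spot intensity values, background-subtracted but not scaled between arrays, with flags for outlier, saturated and well-above-background spots. A second deposited file, the authors' value matrix, expresses each intensity as a ratio to an array-wide constant. On comparison, 15 of the 19 matrix columns matched a scanner file up to a constant (tolerance 0.01, log2) and 13 matched the file of their own sample, so the matrix served by group only. The number of arrays limits the precision.

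Processed intensities were put on the log2 scale and the 75th percentile of the array was subtracted. Outlier spots were left out, saturated spots kept, and the probe with the highest mean intensity stood for a gene. Gene names and mm9 coordinates are those of the deposited files, and one annotation was applied to all arrays. Testing required a probe well above background throughout at least 1 group. Comparisons used limma (version 3.58.1) in R (version 4.3.3), with data.table (version 1.17.8) for input, without covariates, at a Benjamini-Hochberg adjusted p of 0.05 over all genes tested. Where no array of a group measured a gene, a lower bound was set from the dimmest well-above-background signal of each array.

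All 42 members are named, and of each other pathway list the 3 largest rises and falls past the adjusted p, measured on every array of the higher group. The members and lists were chosen with earlier results of these data known. The fits were tested on simulated data with 200 genes changed by 2 on the log2 scale. They recovered 99% of these in C2C12 cells and 40% in soleus, and 6.16% and 4.76% of the calls were false.

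Replicate numbers come from the labels. Arrays of the same number deviated together from their group means (correlation across genes of 0.315 to 0.684 for 6 C2C12 pairs and 0.492 to 0.753 for 3 soleus pairs), as did differently numbered arrays that shared a slide (0.365 to 0.702 and 0.418 to 0.810), whereas pairs across slides gave -0.640 to 0.0924 and -0.774 to -0.440. Replicates of a group correlated at 0.989 or more in C2C12 cells and at 0.863 or more in soleus, and none were duplicates. The alternatives were other normalizations, background correction, filters, probe choices, saturated spots left out, slide or replicate blocks, the methods' t-test, a 1.5-fold threshold and arrays left out in turn. Protein sequences were not used here.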

Additional observations from a re-analysis of the deposited data

Results flagged for a closer look

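The spread of each gene was checked in each group of 4 or 6 arrays, 85 combinations of gene and group in all, and in 6 of them the highest or lowest array stood far from the others for the size of its group. Chance alone sets apart about 1 in 20 such groups. Of the 6, 4 were low values in Control C2C12 replicate 3, whose highest level of any spot was 5.55, the lowest of all arrays. These were Myom2 at 5.32 (the other 5 arrays 5.63 to 5.81), Tpm3 at 5.21 (5.67 to 5.90), Ankrd1 at 5.23 (5.98 to 6.37) and Klhl30 at 5.19 (5.90 to 6.19). All 4 of these spots were flagged as saturated. The part of the scanner limit in these values was not tested. Without this replicate the Tpm3 rise in HDAC4 and 5 cells had a log2 difference of 0.28 and the Ankrd1 fall one of -1.23, and both passed the adjusted p in limma. Mybph was low in Control C2C12 replicate 6, at 1.91 against 2.07 to 2.15, and Myom2 was high in HDAC4 and 5 replicate 2, at 0.80 against 0.59 to 0.66.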

How the results depend on the processing

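In C2C12 cells the 34 falls and 2 rises became 20 and 0 in the deposited matrix (24 genes testable) and 12 and 2 where every array of both groups had to measure a gene (16 testable). There was 1 rise under quantile normalization, normexp correction, the mean of all probes or a 1.5-fold threshold. The median log2 difference was -3.003 with normexp, -5.60 with no filter on dim probes, -1.71 with the stricter filter, -5.04 with the mean of all probes, -6.85 within slide 1 and -5.82 within slide 2. With normexp Myom1 was at 0.050 and Myoz1 at 0.13, and Myl2, Mybpc2, Lmod2, Tcap, Ldb3 and Smyd1 lost their call, as did Tpm3. Tpm1 lost its call in the deposited matrix. The cause was not tested. With the replicate block (same-numbered arrays paired) the counts were 34 and 2 and the median -6.38 in C2C12 cells, and in soleus 0 genes were called, 6 passed at an unadjusted p and the median was -0.10, so the pairing changed no call of a member. In soleus 0 members passed the adjusted p under any alternative. The count at an unadjusted p was 2 with normexp and with the methods' t-test, and 1 to 5 with 1 array left out in turn. The soleus median was 0.22 in the deposited matrix, 0.19 without saturated spots, 0.059 within slide 4 and -0.46 to -0.095 with 1 array left out. With quantile normalization 5 members were below C2C12 cells in soleus. Keeping outlier spots and leaving out Control C2C12 replicate 3, both chosen after seeing the data, gave 34 and 33 falls with 2 rises each (Pdlim3 could not be fitted without replicate 3). Over single genes, 586 of 644 alternative values in C2C12 cells kept their call or stayed within the replicate spread. In soleus 910 of 914 did, but no member was called in any fit, so this count does not measure stability. Of the soleus values 104, in 25 members, changed sign. Signals at the scanner limit bound the soleus differences, and signals near background bound the C2C12 falls.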
